A study of Mus musculus with 14 samples.

Results

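Fetal liver Ter cells are erythroid cells sorted from the embryonic liver at E14.5 as Ter-119+ CD45- Lin-, and they were set against common myeloid progenitors (CMP) sorted from bone marrow of mice whose age the labels do not give. Both groups came from wild type C57BL/6 mice, with 2 samples each, out of 14 samples in 7 groups in the whole series. The gate given for CMP is c-Kit+ FcγRlo CD34- Lin- IL-7R- Sca-1-, and a purity above 98% is stated for every sort. Expression is given as FPKM, averaged by the authors over the samples of a group, a count of sequenced fragments scaled to the transcript's length and the library's depth. The comparison takes the 11773 genes, of 49583 in the table, whose mean reached 1 FPKM in either group. Of these, 6710 reached 1 FPKM in both groups, 530 only in fetal liver Ter cells and 4533 only in CMP. A gene that entered through 1 group alone had to be higher there, so its direction was set by the rule and is a description. The member closest above the threshold was the predicted gene Gm45606, at 0.0165 and 1.00 FPKM, and the gene closest below it was Rpl13a-ps1, at 0.716 and 1.00 FPKM (0.9998 before rounding).

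Definitive red cells of the fetus are made in the liver, where erythroblasts carrying the Ter-119 antigen shrink, fill with hemoglobin and finally expel their nuclei. Hemoglobin needs alpha and beta globin chains, heme and iron, and the cell is held in shape by a spectrin skeleton tied to the anion exchanger band 3. CMP stand at the other end of myelopoiesis: they divide, answer to many growth factors, and can still give rise to granulocytes, monocytes, megakaryocytes and red cells.

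Both libraries of a group could be read back from its mean, since a mean holds whole fragment counts divided by each library's depth. The fetal liver Ter libraries had 28537889 and 17537636 fragments and the CMP libraries 14636912 and 13413530. The deeper library of each pair is called A and the other B. All 4 library values were recovered for 11572 members (98.3%), which were tested, and for the other 201 only the authors' means are given, without an error. Few genes differed over 2-fold between the libraries of a pair, 0.6% of genes tested in fetal liver Ter cells and 2.1% in CMP. These shares are on the log2(FPKM + 1) scale, where differences of low genes are understated. A chi-square per gene sets the difference between libraries against counting noise. Over genes with at least 50 fragments it averaged 3.16 in fetal liver Ter cells and 13.5 in CMP. Nothing in the labels says that the samples came from separate mice, so p-values measure only the spread between these libraries, and organ, age and cell type differ together and cannot be told apart.

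The markers of each population were checked first. By the authors' means, the erythroblast genes Alas2, Slc4a1, Hba-a1 and Hbb-bs stood between 1636 and 79975 FPKM in fetal liver Ter cells and under 4 FPKM in CMP, and 5 hallmark progenitor genes were high in CMP. Cd34 was 29.3 and 30.1 FPKM in the CMP libraries against 0.361 and 0.344 FPKM in fetal liver Ter cells, so the CMP libraries hold Cd34 transcripts although the stated gate is CD34-. The megakaryocyte-erythroid progenitor (MEP) column of the same table, labelled CD34+, held a mean of 0.0694 FPKM of Cd34 and 6403 FPKM of the neutrophil gene Ltf. Whether the gates or columns of CMP and MEP were exchanged was not tested. Flt3 was 15.7 and 16.3 FPKM, Cebpa 67.7 and 53.3 FPKM and Kit 22.9 and 23.0 FPKM in CMP, and all 3 stayed under 0.6 FPKM in fetal liver Ter cells. Ptprc, which codes for CD45, was not analysed here.

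Globin genes made up 47.6% of the summed FPKM in fetal liver Ter cells and 0.00232% in CMP. Just 5 genes held 50% of the FPKM of fetal liver Ter cells, whereas 428 genes were needed in CMP. The 5 most abundant genes of fetal liver Ter cells by the authors' means were Hbb-bs (79975 FPKM, chromosome 7, 103826534 to 103828096 in GRCm38), Hba-a1 (37139 FPKM), Hbb-bt (25575 FPKM), Hba-a2 (17472 FPKM) and the mitochondrial cytochrome oxidase gene mt-Co1 (14070 FPKM). In CMP they were mt-Co1 (4011 FPKM), the elongation factor gene Eef1a1 (3263 FPKM), Rps12 (2772 FPKM), the neutrophil elastase gene Elane (2673 FPKM) and mt-Cytb (2265 FPKM). Mitochondrially encoded genes took 8.39% of the FPKM in fetal liver Ter cells and 4.24% in CMP, whereas cytosolic ribosomal protein genes took 4.76% and 16.7%.

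**Figure D1:**
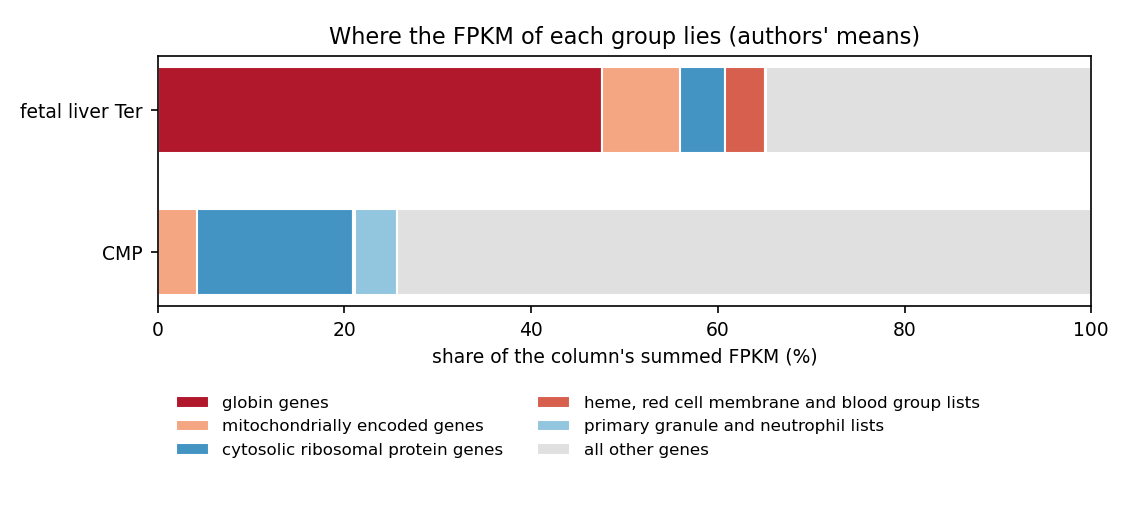
Share of each column's summed FPKM (x axis, percent) held by 6 classes of genes in the authors' means for fetal liver Ter cells and CMP. Globin genes fill 47.6% of the upper bar and are not visible in the lower one, where ribosomal protein genes take 16.7%.

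Against CMP, 938 of the 11572 genes tested were called higher in fetal liver Ter cells (8.11%) and 7084 were called lower (61.2%), together 69.3%. Calls needed 2-fold or more on the log2(FPKM + 1) scale and an adjusted p (limma, Benjamini-Hochberg) under 0.05, and on that scale the fold changes of low genes are understated. By the authors' means, which include the genes that could not be tested, 997 of the 11773 members were at least 2-fold higher (8.47%) and 7285 at least 2-fold lower (61.9%). Across all genes tested the log2 fold change had a median of -1.29, so a typical gene had a lower FPKM in fetal liver Ter cells. This median also rests on the filter at 1 FPKM, which 4533 members passed through CMP alone and 530 through fetal liver Ter cells alone. With no filter on low values, the median of 23256 genes was -0.31, with 927 called higher and 7007 lower.

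The split into higher and lower calls rests on the scale. FPKM divides by all fragments of a library, and 67.3% of the depth of the fetal liver Ter libraries fell within the table's genes against 84.6% in CMP. When globin genes were removed from the FPKM totals, 1314 genes were called higher and 5388 lower, with a median of -0.93. When the globin fragments were removed from the depths, of which they were 12.2% in fetal liver Ter cells, 1071 were higher and 6664 lower. Median-of-ratios scaling, which sets the typical gene to no change, called 2760 higher and 2567 lower. In bulk RNA, fewer cells of a type and less RNA per cell cannot be told apart, and neither total says how much RNA a cell held. List medians below are to be read against the -1.29 of all genes tested, and list counts against the 8.11% called higher and 61.2% called lower among them. Lists and all genes alike hold members that entered through 1 group alone, CMP or fetal liver Ter cells, whose direction was set by the rule. Any gene below with a mean under 1 FPKM in 1 group is such a member, and its p-value is no support for the direction. Groups whose libraries do not overlap were the usual case, at 95.8% of all genes tested.

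**Figure D2:**
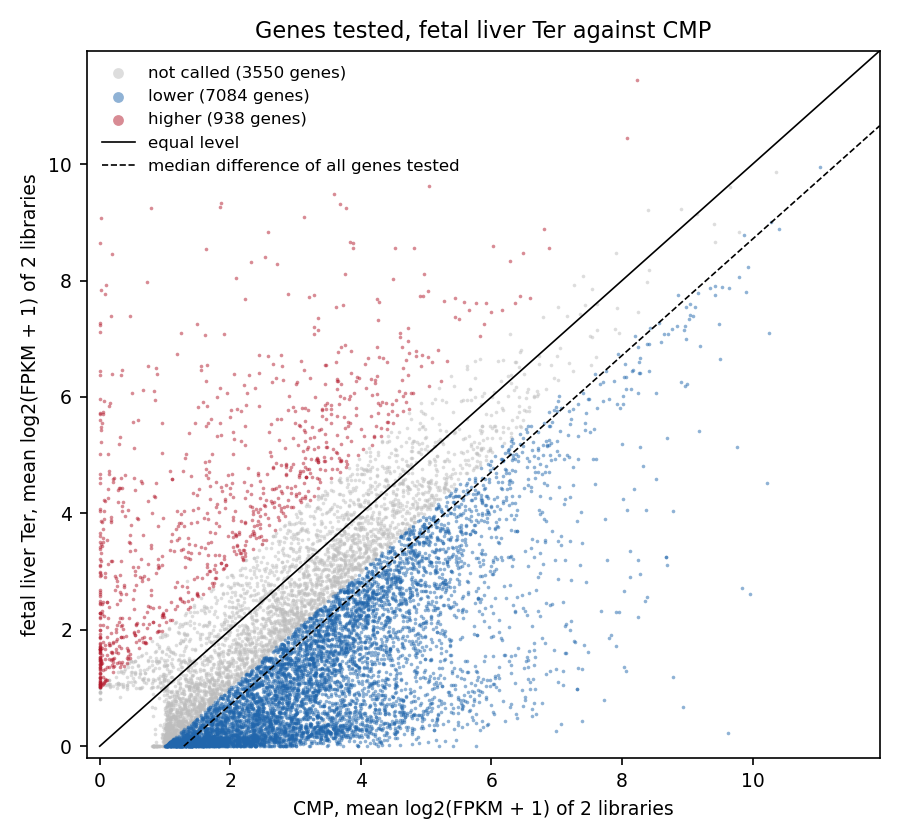
Mean log2(FPKM + 1) of the 2 libraries in CMP (x axis) and fetal liver Ter cells (y axis) for the 11572 genes tested, colored by call. Most points lie under the solid line of equal levels, around the dashed line at the median difference of -1.29, and a separate band of genes near 0 in CMP rises along the y axis.

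**Figure D3:**
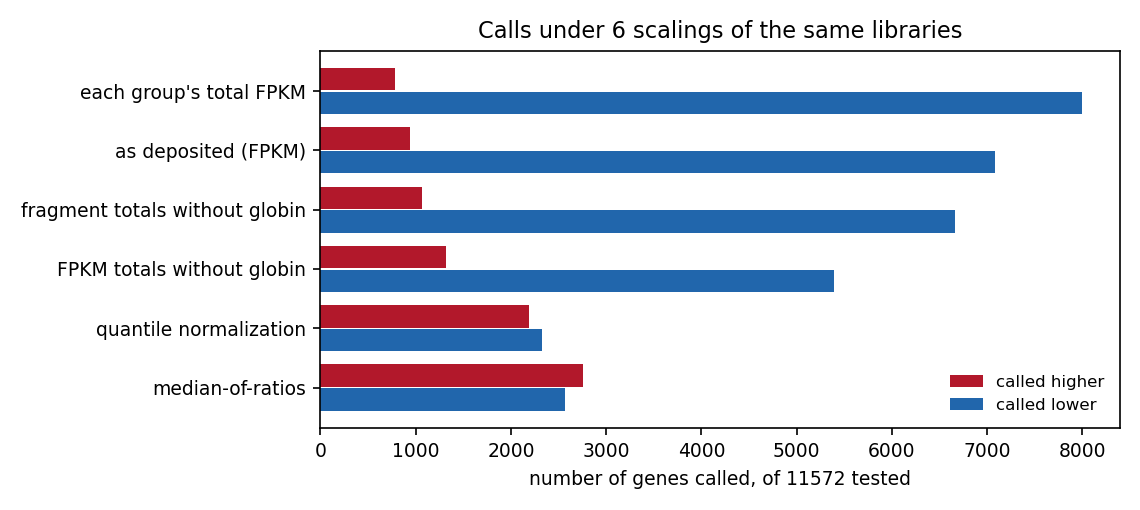
Number of genes called higher (red) and lower (blue) in fetal liver Ter cells, of 11572 tested, under 6 scalings of the same 4 libraries. Lower calls outnumber higher calls with FPKM as deposited (7084 and 938) and without globin, and median-of-ratios scaling gives 2567 and 2760.

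Globin genes of both adult and embryonic type were higher in fetal liver Ter cells. All 5 globin genes tested were called higher, having entered through fetal liver Ter cells alone, and the 4 major adult genes, by the authors' means, had log2 differences of 13.34 to 14.11. Hbb-bs and Hbb-bt, and likewise Hba-a1 and Hba-a2, are near-identical copies, and how their shared reads were split is not given in the sources used here. Hbb-y, an embryonic beta-like globin gene, was 377 and 422 FPKM in fetal liver Ter cells and had 0 fragments in both CMP libraries. Against a floor of 3 fragments in each CMP library that is at least 1181-fold higher. Hbb-bh1, another embryonic beta-like gene, was 130 and 148 FPKM (at least 397-fold higher), and Hba-x, the embryonic alpha-like gene, was 50.4 and 53.0 FPKM (at least 226-fold higher). Hbq1b, a theta globin gene, was 153 and 154 FPKM (at least 520-fold higher). All 5 tested globin genes were at 0 in CMP, and the median log2 fold change of the list was 7.12, or 8.63 with those genes at their bound. CMP library A held more of the adult genes than B, with Hbb-bs at 6.94 and 0.485 FPKM and Hba-a1 at 2.52 and 0.367 FPKM.

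The heme pathway was higher at nearly every step. Of 11 tested heme genes, 10 were called higher and 1 lower (median log2 fold change 4.32). Alas2, the erythroid form of the rate-limiting enzyme, stood at 1636 FPKM against 0.176 FPKM by the authors' means. Alas1, the form used by other cells, went the other way: 0.812 and 0.588 FPKM in fetal liver Ter cells against 62.4 and 48.5 FPKM in CMP, a log2 fold change of -5.04 (SE 0.15, adjusted p 1.04e-05). Alas1 entered through CMP alone and Alas2 through fetal liver Ter cells alone, so the direction of each was set by the rule. Cpox, a mitochondrial oxidase of the pathway, was 639 and 630 FPKM against 13.8 and 10.1 FPKM. Alad, Uros, Urod and Ppox were called higher as well, with log2 fold changes of 4.32 to 4.83. Fech, which inserts the iron, was 839 against 10.9 FPKM by the authors' means, and the mitochondrial iron importer Slc25a37 was 1191 against 16.4 FPKM.

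Of 7 tested genes of the red cell membrane skeleton, 6 were called higher and 1 lower (median log2 fold change 5.65). Ank1, Epb42, Add2 and Tmod1 among them, and the untested Slc4a1 and Sptb, entered through fetal liver Ter cells alone. Their direction was thus set by the rule. Slc4a1, the band 3 anion exchanger, was 2558 against 0.0425 FPKM by the authors' means, and the beta spectrin gene Sptb was 150 against 0.313 FPKM. Ank1, the ankyrin that ties spectrin to band 3, was 100.2 and 76.7 FPKM in fetal liver Ter cells against 0.399 and 0.143 FPKM in CMP (log2 fold change 6.13, SE 0.17, adjusted p 9.36e-06). Epb42, the protein 4.2 gene, was 218 in both libraries against 0.0378 and 0.0688 FPKM. Tmod1, which caps the short actin filaments, was 53.0 and 49.4 FPKM against 0.0346 and 0.0378 FPKM. The gene called lower was Tpm3, a tropomyosin also made by other cells, with 11.4 and 11.8 FPKM against 46.4 and 49.0 FPKM (log2 fold change -1.95).

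Blood group and surface carriers followed: 10 of 12 tested genes were called higher, 1 lower and 1 was not called (median log2 fold change 3.90). Rhd, the Rh polypeptide, was 608 and 610 FPKM in fetal liver Ter cells against 1.24 and 0.327 FPKM in CMP (log2 fold change 8.47, SE 0.25, adjusted p 1.05e-05). Its partner Rhag was 247 and 253 FPKM against 0.847 and 0.478 FPKM. Kel, the Kell peptidase, was 660 and 633 FPKM against 3.20 and 2.15 FPKM. All 3 genes were high in both fetal liver Ter libraries and low in both CMP libraries. Rhd and Rhag, with CMP means below 1 FPKM, entered through fetal liver Ter cells alone, with their direction set by the rule. Slc2a1, the glucose transporter GLUT1, was 461 and 447 FPKM against 4.85 and 5.08 FPKM (log2 fold change 6.25). Cd44, an adhesion receptor that falls as erythroblasts mature, was called lower at 1.03 and 1.19 FPKM against 36.5 and 31.1 FPKM. The equilibrative nucleoside transporter Slc29a1 did not pass, at 24.6 in both libraries against 17.0 and 13.5 FPKM.

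Of 11 tested iron handling genes, 5 were called higher and 4 lower (median 0.68), and 6 higher and 0 lower under median-of-ratios scaling (median 2.44) and quantile normalization (median 1.33). The transferrin receptor Tfrc was 466 against 28.1 FPKM and ferritin heavy chain Fth1 2736 against 542 FPKM by the authors' means. Slc11a2, which carries iron out of the endosome, was 20.2 and 19.6 FPKM against 3.97 and 3.64 FPKM, a log2 fold change of 2.12. Aco1, which becomes the iron regulatory protein 1 when it loses its iron-sulfur cluster, was lower at 0.857 and 1.15 FPKM against 9.53 and 9.07 FPKM. Pcbp1 and Pcbp2, iron chaperones that also bind RNA, were called lower with log2 fold changes of -1.31 and -1.39, and these were 0.57 and 0.45 under median-of-ratios scaling.

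The list of erythroid transcription factors also holds the ubiquitin ligase gene Trim58, which was called higher. Of 20 tested, 14 were called higher, 3 lower and 3 were not called (median log2 fold change 2.67). Klf1, which binds the CACCC box of the adult beta globin promoter, was 319 and 315 FPKM in fetal liver Ter cells against 5.76 and 2.68 FPKM in CMP (log2 fold change 5.99, SE 0.29, adjusted p 3.29e-05). Gata1, the central erythroid GATA factor, was 106 and 104 FPKM against 7.71 and 4.34 FPKM (log2 fold change 3.96, SE 0.24, adjusted p 6.27e-05). Gata2, the progenitor GATA factor, was 0.247 and 0.201 FPKM against 32.9 and 22.3 FPKM (log2 fold change -4.52, SE 0.19, adjusted p 2.34e-05). Gata1 was thus high in fetal liver Ter cells and Gata2 in CMP. Gata2 entered through CMP alone, so its direction was set by the rule. Myb, which keeps progenitors dividing, was lower at 0.557 and 0.709 FPKM against 47.9 and 43.9 FPKM. Sox6, a partner in silencing embryonic globin, was 22.5 and 22.2 FPKM against 0.0967 and 0.206 FPKM. Tal1, Gfi1b and E2f2 were higher with log2 fold changes of 3.81, 3.61 and 3.93. Klf2, a relative of Klf1, was among the strongest losses, at 0.304 and 0.309 FPKM against 138 and 127 FPKM (log2 fold change -6.68). Of the 20 genes tested, 19 were higher in CMP library A than in B.

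Erythropoietin drives survival of these cells through its receptor, JAK2 and STAT5. Of 10 tested pathway genes, 4 were called higher and 4 lower (median 0.67). Epor, the receptor, was 135 and 131 FPKM in fetal liver Ter cells against 2.58 and 1.61 FPKM in CMP (log2 fold change 5.46, SE 0.16, adjusted p 1.04e-05). Bcl2l1, which codes for the survival protein BCL-XL, was 137 and 132 FPKM against 3.05 and 2.49 FPKM (log2 fold change 5.17). Bcl2 itself was 0.0383 and 0.0374 FPKM against 7.98 and 7.64 FPKM, so these 2 survival genes moved in opposite directions. Kit, the stem cell factor receptor, was lower at 0.511 and 0.499 FPKM against 22.9 and 23.0 FPKM. Stat5a, at 0.280 in both libraries against 11.4 and 10.9 FPKM, and Stat5b, at 2.92 and 3.09 FPKM against 26.5 and 27.1 FPKM, were lower too. Bcl2, Kit and Stat5a entered through CMP alone, so their direction was set by the rule. Across the BCL2 family, 2 of 12 tested genes were called higher, Bcl2l1 and the mitophagy receptor Bnip3l, and 8 lower (median -1.63).

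Genes for clearing organelles and for the red cell's protein turnover were largely higher, 11 of 17 tested against 2 lower (median 1.97). Ube2l6, an E2 enzyme, was 539 and 557 FPKM against 9.34 and 6.42 FPKM (log2 fold change 5.97). Ube2o, which tags ribosomal proteins for destruction in reticulocytes, was 113 and 93.6 FPKM against 5.62 and 4.39 FPKM. Bnip3l was 130 and 143 FPKM against 23.0 and 23.6 FPKM. The small GTPase Rac1 and the autophagy enzyme Atg7 were the 2 called lower, with log2 fold changes of -2.03 and -1.62. Under median-of-ratios scaling these were -0.21 and -0.26, and neither was called.

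Of 12 tested antioxidant genes, 6 were called higher and 3 lower (median 1.4), and 8 higher and 0 lower under median-of-ratios scaling (median 3.03). Prdx2, the main red cell peroxiredoxin, was 785 and 792 FPKM in fetal liver Ter cells against 32.2 and 32.0 FPKM in CMP (log2 fold change 4.57, SE 0.05, adjusted p 4.65e-06). Prdx1, its relative, was 12.5 and 12.1 FPKM against 62.8 and 68.3 FPKM (log2 fold change -2.32). Catalase, coded by Cat, was 274 and 277 FPKM against 31.8 and 28.9 FPKM. Blvrb, a biliverdin reductase, was 341 and 334 FPKM against 5.75 and 3.97 FPKM. Glutathione reductase, coded by Gsr, was called lower at 21.02 and 20.6 FPKM against 140.4 and 122 FPKM.

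The red cell and general forms of pyruvate kinase went opposite ways. Of 19 tested metabolic genes, 4 were called higher, Pklr, Bpgm, Gmpr and Ampd3, and 10 lower (median -2.05). Median-of-ratios scaling gave 9 higher and 7 lower (median -0.22). Pklr, the liver and red cell pyruvate kinase, was 94.3 and 89.5 FPKM in fetal liver Ter cells against 0.992 and 0.392 FPKM in CMP (log2 fold change 5.80, SE 0.18, adjusted p 1.17e-05). Pkm, the pyruvate kinase of most other cells, was 3.90 and 4.17 FPKM against 194 and 216 FPKM (log2 fold change -5.35, SE 0.08, adjusted p 5.31e-06). Pklr was high in fetal liver Ter cells and Pkm in CMP. Pklr, with both CMP libraries below 1 FPKM, entered through fetal liver Ter cells alone, so its direction was set by the rule. Bpgm makes 2,3-bisphosphoglycerate, which loosens oxygen from hemoglobin, and was 204 and 206 FPKM against 3.41 and 4.01 FPKM. Hexokinase 2, coded by Hk2, was lower at 0.317 and 0.287 FPKM against 22.32 and 20.98 FPKM, whereas Hk1 was 30 and 23.73 FPKM against 23.4 and 22.1 FPKM and was not called. Aldoa, Gapdh, Pgk1, Eno1, Ldha and Ldhb were all called lower, with log2 fold changes of -2.68 to -3.89. Car2, a carbonic anhydrase, was 1551 against 15.9 FPKM by the authors' means.

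Of 20 mitosis genes, 11 were called higher and 0 lower (median 1.29), and all 20 were called higher under median-of-ratios scaling. Ube2c, which feeds the anaphase-promoting complex, was 260.4 and 262 FPKM against 18.1 and 25.5 FPKM (log2 fold change 3.54, SE 0.16, adjusted p 2.77e-05). Ccna2, the mitotic and S phase cyclin A, was 123 in both libraries against 24.7 and 26.2 FPKM. Top2a, the topoisomerase of condensing chromosomes, was 65.4 and 68.3 FPKM against 60.6 and 68.8 FPKM, and these ranges overlapped. Of 20 replication genes, 1 was called higher and 5 lower (median -0.36). That median was 0.22 without globin in the FPKM totals and 1.41 under median-of-ratios scaling. Rrm2, a ribonucleotide reductase subunit, was the one called higher at 319 and 327 FPKM against 76.2 and 77.1 FPKM. Pcna, the replication clamp, was 170.4 and 171 FPKM against 171 and 154 FPKM and did not pass. All 20 mitosis genes were lower in CMP library A than in B, or equal to it, by a median of 0.28 on the log2 scale.

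Of 16 tested cell cycle regulators, 4 were called higher and 7 lower (median -0.68, and 1.15 under median-of-ratios scaling). Ccnd3, the D cyclin of erythroblasts, was 44.7 and 43.7 FPKM against 23.0 and 13.7 FPKM (log2 fold change 1.27). Ccnd2 was 0.250 and 0.285 FPKM against 10.6 and 7.84 FPKM (log2 fold change -3.00). Cdk6, a kinase bound by D cyclins, was lower at 0.263 and 0.326 FPKM against 31.8 and 35.9 FPKM (log2 fold change -4.75), and Myc at 2.24 and 2.90 FPKM against 90.1 and 55.3 FPKM (log2 fold change -4.33). The inhibitor gene Cdkn2d was higher, at 132 and 129 FPKM against 22.1 and 24.7 FPKM.

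On the side of loss, the granule proteins of early granulocytes came first. All 7 tested primary granule genes were called lower (median log2 fold change -5.82). Mpo, myeloperoxidase, was 17.0 against 1753 FPKM, Elane 14.1 against 2673 FPKM and Prtn3, proteinase 3, 10.4 against 1131 FPKM by the authors' means. Ctsg, cathepsin G, was 6.12 and 4.21 FPKM in fetal liver Ter cells against 905 and 1096 FPKM in CMP (log2 fold change -7.36, SE 0.18, adjusted p 7.83e-06). Srgn, the proteoglycan that packs granules, was 5.06 and 4.78 FPKM against 331 and 336 FPKM.

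Every one of 15 tested myeloid transcription factors was called lower (median -3.83). Irf8, which directs monocyte and dendritic fate, was 0.373 and 0.509 FPKM in fetal liver Ter cells against 93.7 and 102 FPKM in CMP (log2 fold change -6.10, SE 0.09, adjusted p 5.31e-06). Spi1, the PU.1 gene, was 1.70 and 1.54 FPKM against 83.9 and 72.6 FPKM (log2 fold change -4.91). Cebpa, the granulocyte factor, was 0.346 and 0.238 FPKM against 67.7 and 53.3 FPKM (log2 fold change -5.56). The immediate early genes Jun and Fos were lower by -6.18 and -6.02 on the log2 scale.

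All 15 tested progenitor and stem cell genes were called lower (median -3.44, or -3.83 with the 2 genes at 0 fragments in fetal liver Ter cells, Hoxa7 and Hoxb4, at their bound). The list's means summed to 3.52 FPKM in fetal liver Ter cells. Most of the 15 genes thus entered through CMP alone, with their direction set by the rule. Cd48, a surface marker of progenitors, was 0.707 and 0.432 FPKM against 96.5 and 99.3 FPKM. The ETS factors Erg and Fli1 were lower by -3.44 and -3.98. Of 18 cytokine receptor genes, 16 were called lower and 0 higher (median -2.99). The means of these 18 genes summed to 14.9 FPKM in fetal liver Ter cells, so some of them also entered through CMP alone. The GM-CSF receptor chain Csf2ra was 1.29 and 1.45 FPKM against 106 and 123 FPKM, and the interferon gamma receptor Ifngr1 was 1.70 and 1.86 FPKM against 87.5 and 100.3 FPKM. Interleukin receptor gene Il7r and the IL-33 receptor Il1rl1 were the 2 not called.

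Signaling and adhesion genes of white cells showed the same direction. Of 17 tested signaling genes, 16 were called lower (median -3.93), among them the GTPase exchange factor Vav1, at 1.07 and 1.13 FPKM against 63.0 and 66.9 FPKM. Of 18 adhesion and chemokine receptor genes, 17 were called lower (median -4.06). Selplg, the P-selectin ligand, was 0.673 and 0.681 FPKM against 98.2 and 102 FPKM, and the marrow-homing receptor Cxcr4 was 0.988 and 1.33 FPKM against 104 and 88.1 FPKM. The exception was Itga4, the alpha 4 chain of the VLA-4 integrin that binds erythroblasts to macrophages, at 27.2 and 25.4 FPKM against 17.4 and 18.8 FPKM, which was not called (log2 fold change 0.51).

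Antigen presentation genes were low in fetal liver Ter cells. All 10 tested class I genes (median -4.34) and all 9 class II genes (median -4.88, or -4.96 with H2-Oa, which had 0 fragments, at its bound) were called lower. The class II means summed to 1.93 FPKM in fetal liver Ter cells. Nearly all class II genes thus entered through CMP alone, with their direction set by the rule. B2m, the light chain of class I, was 22.5 and 21.6 FPKM against 1242 and 1154 FPKM (log2 fold change -5.70, SE 0.06, adjusted p 4.65e-06). Cd74, the class II invariant chain, was 0.696 and 0.607 FPKM against 124 and 48.7 FPKM. The class II chains Cd74, H2-Aa, H2-Ab1 and H2-Eb1 were all higher in CMP library A than in B. Innate sensing followed, with 13 of 13 tested genes called lower (median -2.24). The means of that list summed to 6.13 FPKM in fetal liver Ter cells, so most of the 13 genes also entered through CMP alone. Among 16 interferon-stimulated genes (median -1.83) 11 were called lower and 2 higher, Isg20 at 71.4 and 73.8 FPKM against 5.03 and 2.56 FPKM, and Rsad2 at 7.33 and 7.54 FPKM against 1.63 and 0.344 FPKM. Isg20 codes for an exonuclease that cuts RNA, and Rsad2 for the antiviral enzyme viperin.

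Lysosomal genes were called lower in 15 of 16 cases (median -3.48). Hexa, a hydrolase of gangliosides, was 1.33 and 1.71 FPKM against 134 and 120 FPKM, and Psap, which makes the hydrolases' activator proteins, was 43.8 and 39.7 FPKM against 607 and 554 FPKM. Ctsd was the gene tested but not called. Ctsb, cathepsin B, stood apart by the authors' means at 236 FPKM in fetal liver Ter cells against 68.8 FPKM in CMP.

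The machinery of protein synthesis was lower by FPKM. Of 16 tested ribosomal protein genes, 15 were called lower (median -1.62), close to the -1.29 of all genes, and the median was 0.27 under median-of-ratios scaling. Rps6 was 230 and 239 FPKM against 769 and 826 FPKM, and the one not called was Rps2, at 456 and 457 FPKM against 866 and 908 FPKM (log2 fold change -0.96). The direction of Rps6 and Rps2 turned under median-of-ratios scaling, to 0.13 and 0.94. Reads of ribosomal protein genes can be shared with pseudogene copies, and how these were counted is not given in the sources used here. Nucleolar genes were further down, with 14 of 15 called lower (median -2.41, and -1.05 under median-of-ratios scaling). Npm1, nucleophosmin, was 36.3 and 40.4 FPKM against 398 and 427 FPKM (log2 fold change -3.39, SE 0.08, adjusted p 6.97e-06). Eif2ak1, the heme-regulated kinase that stops translation when heme runs short, was the one called higher of 9 translation factor genes (median -1.09, and 0.80 under median-of-ratios scaling), at 111 and 107 FPKM against 11.2 and 11.9 FPKM. Of 17 nuclear genes for oxidative phosphorylation, 8 were called lower and 0 higher (median -0.91, and 0.91 under median-of-ratios scaling). Of 15 DNA methylation and polycomb genes, 9 were called lower and 0 higher, close to the 61.2% of all genes (median -1.13, and 0.08 under median-of-ratios scaling). Dnmt3a, a de novo methyltransferase, was 0.168 and 0.257 FPKM against 4.42 and 3.82 FPKM, whereas Uhrf1, which guides maintenance methylation, was 72.9 and 69.4 FPKM against 89.3 and 75.0 FPKM and was not called.

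**Figure D4:**
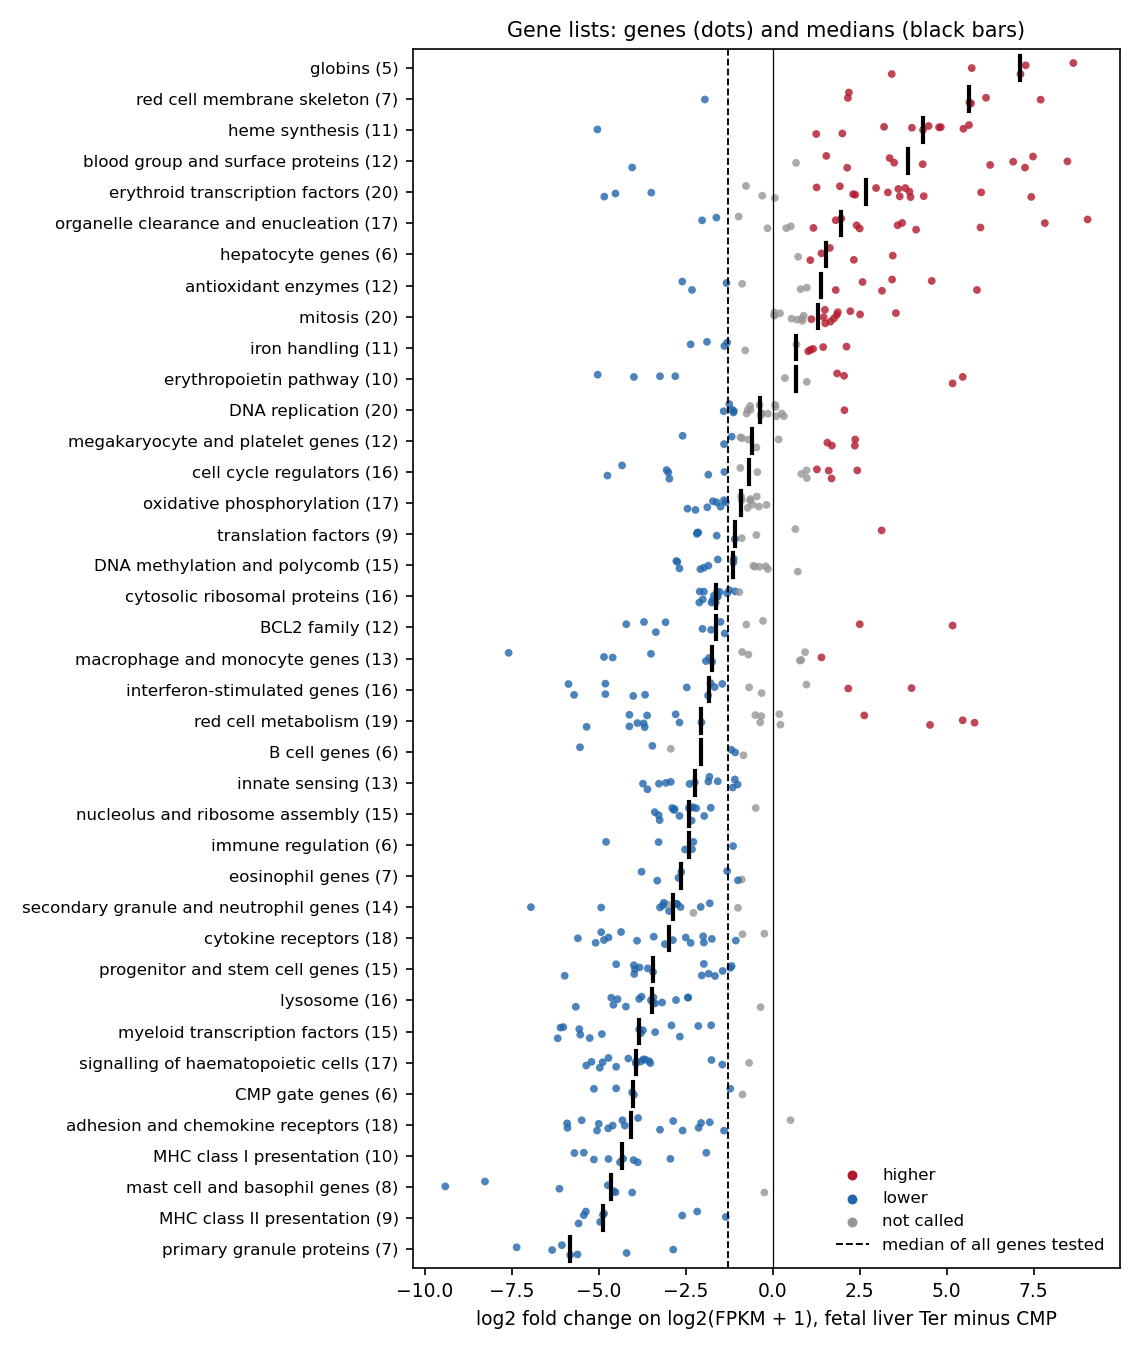
Log2 fold change on log2(FPKM + 1), fetal liver Ter cells minus CMP (x axis), of the tested genes in each list with at least 5 of them (y axis, number tested in brackets), with the list's median as a black bar. The globin, heme, membrane skeleton and blood group lists have medians to the right of 0, granule and antigen presentation lists and red cell metabolism to the left of the dashed line at -1.29, with replication between the lines and mitosis right of 0.

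Markers of other cell types were counted in the same way. Basophil and mast cell genes were called lower in 7 of 8 cases (median -4.66), and their summed FPKM over tested genes was 3.31 and 4.39 in fetal liver Ter cells against 1741 and 1261 in CMP. Most of these 8 genes thus entered through CMP alone, with their direction set by the rule. Eosinophil genes were called lower in 6 of 7 cases (median -2.63), with sums of 30.8 and 22.9 FPKM against 384 and 256 FPKM. Both lists were higher in CMP library A in every tested gene. Late neutrophil genes differed most between the CMP libraries: all 14 tested were higher in A than in B, 11 of them over 2-fold, and their sum was 5139 FPKM in A and 1266 FPKM in B against 322 and 250 FPKM in fetal liver Ter cells. S100a9, a neutrophil alarmin, was 2532 and 590 FPKM in CMP against 153 and 121 FPKM. Of these 14 genes, 11 were called lower (median -2.87). Under median-of-ratios scaling 2 were called lower (median -1.25), and under quantile normalization 6 (median -1.95). With no filter on low values 6 were called lower. With only CMP library B the median was -1.66 and 12 were called lower, and with only library A it was -4.13 and 14 were called lower. With 1 fetal liver Ter library left out, 2 of the 14 were called lower in either case. The neutrophil surface gene Ly6g was at 13.05 and 1.187 FPKM in CMP, and its part in the other results was not tested.

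In the B cell list, the genes called lower included Ighm, at 2.01 and 2.06 FPKM against 140.2 and 140 FPKM, and Cd79b, at 0.514 and 0.677 FPKM against 19.2 and 14.2 FPKM. Of 6 tested, 4 were called lower (median -2.06), near the 61.2% of all genes, and the mean of Ms4a1 was below 1 FPKM in both groups. Igkc was 49.2 FPKM in CMP library A and 2.52 FPKM in B. Of 3 tested genes each, 2 T cell and 3 NK cell genes were called lower, too few to set against 61.2%, and Cd3e was at 0 in fetal liver Ter cells and at a mean of 0.00837 FPKM in CMP. The 3 NK cell genes, whose list summed to 0.263 FPKM in fetal liver Ter cells, entered through CMP alone. All 6 hepatocyte genes tested entered through fetal liver Ter cells alone, so their direction was set by the rule. Alb, which codes for albumin, was 9.10 and 11.2 FPKM in fetal liver Ter cells against 0.0292 and 0 FPKM in CMP, and the list summed to 19.5 and 25.3 FPKM against 0.944 and 1.13 FPKM. The hepatocyte factor gene Hnf4a was below 1 FPKM in both groups. The part of hepatocyte RNA in the other results was not tested.

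Macrophage and megakaryocyte genes were mixed. Of 13 tested macrophage and monocyte genes, 7 were called lower and 1 higher, the scavenger receptor gene Marco, at 2.13 and 1.30 FPKM against 0.0355 and 0 FPKM (median -1.74). C1qa, a complement gene of tissue macrophages, was 2.39 and 1.86 FPKM against 1.71 and 0.215 FPKM and was not called. Of 12 tested megakaryocyte genes, 4 were called higher and 3 lower (median -0.59, and 0.58 under median-of-ratios scaling). Gp9, a platelet glycoprotein gene, was higher at 12.1 and 14.9 FPKM against 1.24 and 2.54 FPKM, while Itga2b, the platelet integrin, was lower at 2.01 and 2.59 FPKM against 20.1 and 17.4 FPKM. Of 11 fetal growth genes, 3 reached 1 FPKM, of which the first and second below entered through fetal liver Ter cells alone: H19, the imprinted noncoding RNA, at 4.33 and 5.77 FPKM against 0 fragments (at least 55.9-fold higher), Lin28b at 1.43 and 1.51 FPKM against 0 and 0.0165 FPKM, and Grb10 at 4.52 and 4.69 FPKM against 1.79 and 1.34 FPKM. All 6 tested immune regulation genes were called lower (median -2.42), among them Lgals9, galectin 9, at 1.62 and 2.32 FPKM against 88.8 and 73.6 FPKM.

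The 12 genes with the largest change in each direction, at no less than 20 FPKM in both libraries of the higher group, name the extremes. Leading the gains was Trim10, a tripartite motif gene of erythroid cells on chromosome 17 (36869574 to 36877833 in GRCm38), at 542 and 532 FPKM against 0.0304 and 0 FPKM (log2 fold change 9.05, SE 0.07, adjusted p 4.65e-06). Among the others were Hbb-y, Rhd, Cldn13, Ypel4, Epb42, Kel, Hemgn, Hbq1b, Rhag and Hbb-bh1. Cldn13, a claudin, was 247 and 236 FPKM against 0.0640 and 0.0699 FPKM. Hemgn, the nuclear protein hemogen, was 613 and 615 FPKM against 2.88 and 2.29 FPKM. Leading the losses was Prss34, a basophil and mast cell protease gene on chromosome 17 (25298394 to 25300165), at 0.0576 and 0.281 FPKM against 923 and 680 FPKM (log2 fold change -9.41, SE 0.18, adjusted p 6.20e-06). Mcpt8, a basophil protease, was 0.451 and 0.734 FPKM against 579 and 411 FPKM (log2 fold change -8.27). Then came Ly6c2, Ctsg, Plac8, Chil3, Gstm1, Tpm3-rs7, Klf2, F13a1, Nkg7 and Rhob. Ly6c2, the monocyte antigen Ly6C2, was 1.30 and 1.27 FPKM against 402 and 478 FPKM. F13a1, the coagulation factor XIII A chain, was 1.47 and 1.68 FPKM against 260 and 261 FPKM. Plac8 was 5.06 and 6.09 FPKM against 888 and 939 FPKM. Tpm3-rs7 is a copy of Tpm3 and can share its reads.

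**Figure D5:**
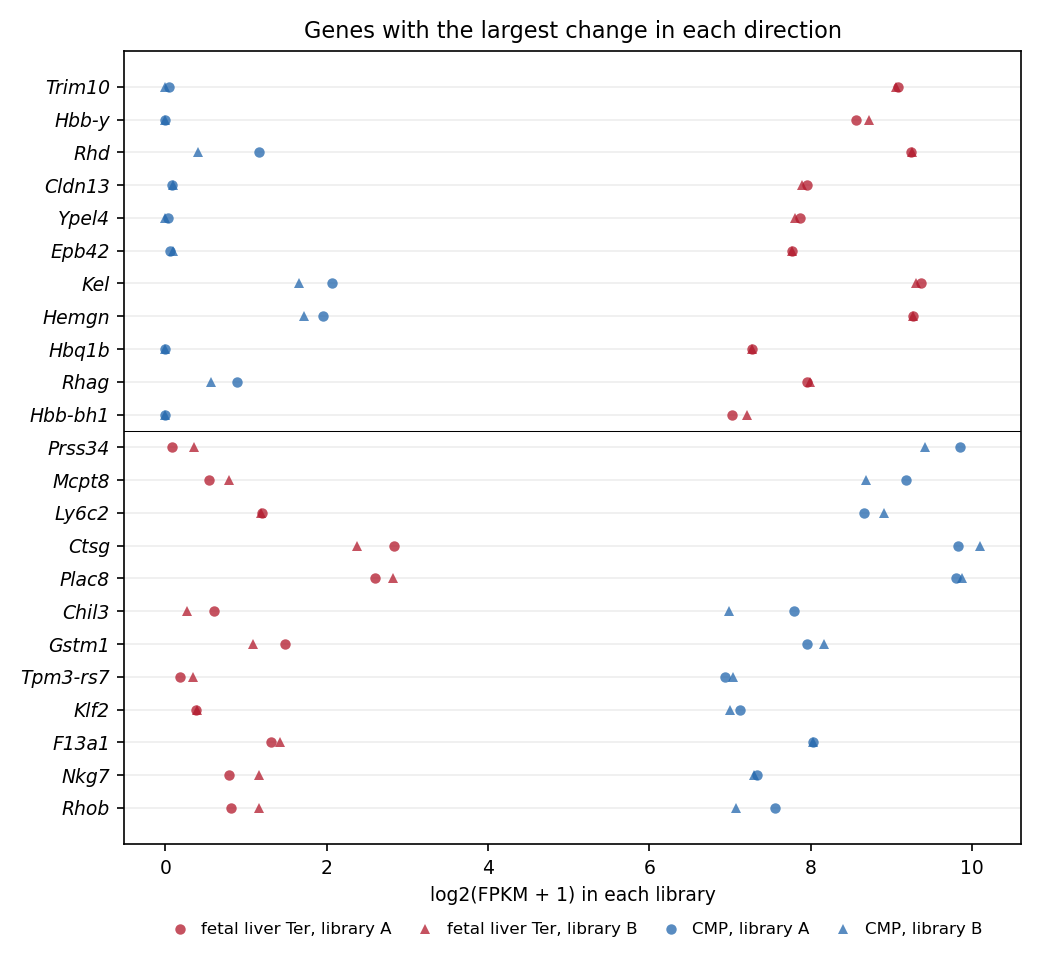
Level in each of the 4 libraries, as log2(FPKM + 1) (x axis), of the genes named from the 12 with the largest change in each direction (y axis; circles library A, triangles library B). No gene's groups overlap, which the rule for naming them required, and the CMP libraries of Rhd stand farther apart than its fetal liver Ter libraries.

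The promoters of 3 genes from each end are shown to put both programs side by side, as the bases before the start in RefSeq (GRCm38.p6), 5′ to 3′ on the gene's own strand. They are the first 3 in each direction with 1 promoter in the RefSeq table and a start within 30 bases of that in GENCODE M21. Capitals mark matches on either strand to 5 motifs. The GATA motif was searched with the letters AGATAA and with the letters AGATAG, and also with TGATAA in place of these and with TGATAG likewise. The CACCC box was searched with the letters CACACCC, then with the letters CACGCCC, then with the letters CCCACCC. The motif of PU.1 has the letters GAGGAAG, while that of C/EBP has the letters TTGCNCA. The E-box was searched with the letters CAGCTG, then with the letters CATCTG. In Ctsg a CACCC box match and a C/EBP match overlap in 1 run of capitals.
Trim10, chr17:36869324-36869573, plus strand: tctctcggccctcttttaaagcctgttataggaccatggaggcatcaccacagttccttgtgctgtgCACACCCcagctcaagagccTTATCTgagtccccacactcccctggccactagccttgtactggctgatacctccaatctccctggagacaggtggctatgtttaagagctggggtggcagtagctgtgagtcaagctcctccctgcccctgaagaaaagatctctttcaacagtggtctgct
Hbb-y, chr7:103853217-103853457, minus strand: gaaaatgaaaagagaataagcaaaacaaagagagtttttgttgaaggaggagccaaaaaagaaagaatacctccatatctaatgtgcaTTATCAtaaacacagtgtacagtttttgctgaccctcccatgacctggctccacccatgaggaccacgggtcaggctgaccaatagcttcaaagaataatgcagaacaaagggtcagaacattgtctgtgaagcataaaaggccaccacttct
Rhd, chr4:134864286-134864535, plus strand: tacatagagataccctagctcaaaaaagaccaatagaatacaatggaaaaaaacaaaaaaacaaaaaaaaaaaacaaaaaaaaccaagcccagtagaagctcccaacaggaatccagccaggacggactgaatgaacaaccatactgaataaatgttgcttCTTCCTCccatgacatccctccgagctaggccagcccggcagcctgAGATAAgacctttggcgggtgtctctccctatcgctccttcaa
Prss34, chr17:25298144-25298393, plus strand: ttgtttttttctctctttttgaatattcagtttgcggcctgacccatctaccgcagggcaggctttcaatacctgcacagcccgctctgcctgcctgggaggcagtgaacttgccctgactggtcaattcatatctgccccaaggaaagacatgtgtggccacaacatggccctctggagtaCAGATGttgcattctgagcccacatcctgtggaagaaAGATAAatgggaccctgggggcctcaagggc
Ctsg, chr14:56102575-56102824, minus strand: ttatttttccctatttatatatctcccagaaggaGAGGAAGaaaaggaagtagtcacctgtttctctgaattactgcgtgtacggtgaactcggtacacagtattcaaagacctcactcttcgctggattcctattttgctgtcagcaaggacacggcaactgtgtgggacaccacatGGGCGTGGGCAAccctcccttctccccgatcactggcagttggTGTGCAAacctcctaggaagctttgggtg
Chil3, chr3:106167565-106167814, minus strand: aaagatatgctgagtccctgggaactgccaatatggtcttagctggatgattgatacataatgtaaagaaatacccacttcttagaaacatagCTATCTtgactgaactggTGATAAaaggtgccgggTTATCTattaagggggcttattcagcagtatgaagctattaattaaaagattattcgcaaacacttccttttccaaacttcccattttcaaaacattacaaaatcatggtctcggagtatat

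Each of the 3 promoters of genes called higher holds 1 GATA match, and Trim10 also holds 1 CACCC box match and Rhd 1 PU.1 match. GATA matches were not particular to them, since Prss34 holds 1 and Chil3 holds 3. Over 250 bases, GATA matches were present in 22.0% of 644 promoters of genes called higher, 17.1% of 5237 promoters of genes called lower, 17.1% of the 8257 tested genes with a promoter and 27.1% of all 27025 genes with a promoter. For the CACCC box the shares were 41.8%, 34.3%, 34.1% and 26.4%, and for PU.1 8.23%, 12%, 10.9% and 10.4%. C/EBP matches were in 13%, 11.1%, 10.9% and 11.8%, and E-box matches in 18.2%, 19.3%, 19% and 25.3%. Matches of different motifs overlapped in 0.873% of all promoters. These shares are counts of letters and carry no test.

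One microRNA gene, chosen after its values were seen, also marked the fetal liver Ter cells. Mir144, which codes for a microRNA of the erythroid miR-144 and miR-451 cluster on chromosome 11 (78073005 to 78073070), was 80.2 and 92.4 FPKM in fetal liver Ter cells and had 0 fragments in CMP, at least 26.6-fold higher. These are fragments over the hairpin in a library of longer RNA, not counts of the mature microRNA. The mature forms in RefSeq (GRCm38.p6, plus strand), with bases 2 to 8, the seed, in capitals, are as follows.
mmu-miR-144-3p, chr11:78073047-78073066: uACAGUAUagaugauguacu
mmu-miR-144-5p, chr11:78073010-78073032: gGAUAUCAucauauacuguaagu

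Genes at 0 fragments in 1 group alone add to the picture. Of the genes tested, 100 had 0 fragments in both CMP libraries and 313 in both fetal liver Ter libraries. Such genes could enter only through the other group. Members that entered through 1 group alone numbered 530 for fetal liver Ter cells and 4533 for CMP, so the 2 counts have unequal bases. Among the genes at 0 fragments, 13 reached 20 FPKM in both fetal liver Ter libraries and 3 reached it in both CMP libraries. Slfn14, a ribosome-associated endonuclease of the Schlafen family, was 85.8 and 79.0 FPKM in fetal liver Ter cells (at least 1425-fold higher), and H2-Q6, a class I-like gene, was 50.2 and 56.7 FPKM in CMP (at least 807-fold lower in fetal liver Ter cells). Both were picked after their values were seen. Genes called higher had a median of 2.20 FPKM in CMP and 17.2 FPKM in fetal liver Ter cells. Genes called lower had medians of 8.35 and 0.841 FPKM, and all genes tested 6.67 and 1.73 FPKM. The calls were made from these same levels. Of the 938 genes called higher, 370 had a CMP mean below 1 FPKM and so entered through fetal liver Ter cells alone. Coding genes were 82.7% of those called higher and 89.6% of those called lower, and long noncoding RNA genes were 7.78% and 3.09%. Over all genes tested, 86.2% were coding and 3.93% long noncoding.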

How the data were processed

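RNA was extracted with Trizol, and libraries were made with the TruSeq RNA kit, per the labels' protocols. The authors deposited mean FPKM values per gene and group. The genome build was mm10 (GRCm38), per the submitters' processing notes, and no source used here names the aligner or counter. Each mean was split into its 2 libraries by finding whole fragment counts that give the deposited value at the exon length in GENCODE M21, or at a searched length where none fitted, and genes with several possible pairs were left out. The design had assumed values per sample, so the test ran on these recovered libraries. It was limma 3.58.1 (R 4.3.3) with a mean-variance trend, on log2(FPKM + 1) of 4 libraries, with 2 residual degrees of freedom. Since the deposited values are FPKM, no count model was fitted. Named genes were the 12 called genes with the largest change in each direction that had at least 20 FPKM in both libraries of the higher group and groups that did not overlap, leaving out unnamed gene models and antigen receptor segments. The 5 most abundant genes of each group and members of the gene lists were also named. The members and lists were chosen with earlier results of these data known. Other scalings, filters, pseudocounts and left-out libraries were tried. Some genes that these rules cover are not reported here.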

Additional observations from a re-analysis of the deposited data

How the results depend on the processing

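The direction of single genes with large changes held under the alternatives, and the balance of calls did not. Of 1994 values for 145 named genes under the alternatives, 1914 kept their direction and side of the threshold, and 20 turned. Lists were less stable: for 42 lists, 360 results stayed the same under an alternative, 211 moved without turning and 13 turned. Called higher were 2760 genes under median-of-ratios scaling and 2192 under quantile normalization, and called lower were 2567 and 2327, or 4707 with a filter of 5 FPKM, where fewer genes were tested. By the authors' means, 2909 genes were 2-fold higher and 2597 lower under median-of-ratios scaling, and 4808 lower with 5 FPKM. List medians that turned were DNA replication (0.22 without globin in the totals, 1.41 under median-of-ratios scaling, 0.58 under quantile normalization), cell cycle regulators (0.19 with 5 FPKM, 1.15 and 0.15 under those scalings) and megakaryocyte genes (0.17, 0.58 and 0.65). Under median-of-ratios scaling alone, ribosomal proteins (0.27), translation factors (0.80), oxidative phosphorylation (0.91) and DNA methylation and polycomb (0.08) turned, as did Pcbp1 (0.57), Pcbp2 (0.45), Rps2 (0.94) and Rps6 (0.13). Without globin, under median-of-ratios scaling and under quantile normalization, Ctsd was 0.25, 1.5 and 0.36, Il1rl1 0.18, 1.06 and 1.19, and Uhrf1 0.41, 1.67 and 0.40. Il7r was 0.23 under quantile normalization. Divided by total FPKM, an alternative chosen after seeing the data like the globin-free fragment totals, Hk1 was -0.08, Pcna -0.25 and Top2a -0.26. With 1 CMP library left out, Il1rl1 ranged from -0.51 to 0.03, Pcna from -0.0 to 0.14 and Top2a from -0.04 to 0.14, the lone library being assumed to vary like the other group. The cause of these changes was not tested. No paired analysis was possible because the recovered libraries carry no replicate number.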
